A study of Mus musculus with 8 samples.

Results

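The 3 PGC-1 coactivator genes (*Ppargc1a*, *Ppargc1b* and *Pprc1*) and 6 genes for the subunits of the AMP-activated protein kinase AMPK (*Prkaa1*, *Prkaa2*, *Prkab1*, *Prkab2*, *Prkag1* and *Prkag2*) were taken by symbol from a table of 18605 genes, and all 9 had enough counts to be tested. RNA-seq was from C3H10T1/2 cells, a line of mesenchymal stem cells derived from embryos of the C3H mouse strain. The cells were either a non-target control (NC) or carried a lentiviral shRNA against *Nap1l2*, a histone chaperone gene (KD-Nap1l2). They were taken before induction or 7 days into osteogenic induction (KD-Nap1l2-7d and NC-7d). The induction medium was high-glucose DMEM with serum, dexamethasone, ascorbic acid and β-glycerol phosphate. The 4 groups of 2 libraries therefore share 1 cell line, and the paper does not say whether the control cells were infected with lentivirus. The labels give neither which shRNA sequence was used nor whether the libraries of a group came from separate cultures, so p-values measure only the spread between these libraries.

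PGC-1 coactivators carry no DNA-binding domain of their own and act through nuclear receptors and respiratory factors to raise the transcription of genes for mitochondria and fatty acid oxidation. AMPK is a kinase made of a catalytic alpha, a scaffold beta and an AMP-binding gamma subunit, which is switched on when cellular energy falls and which phosphorylates PGC-1α and other metabolic proteins. In mesenchymal progenitors both have been studied for the choice between bone and fat and for the mitochondrial growth that goes with differentiation.

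Library totals lay between 17420237 and 19427284 estimated counts. *Nap1l2* was counted 3 and 3 times in NC, 2 and 7 in KD-Nap1l2, 15 and 5 in the NC-7d libraries, then 7 and 13 in those of KD-Nap1l2-7d. The targeted gene was thus not counted lower in the libraries labelled KD-Nap1l2. Counts this low cannot decide whether its level was reduced. The interval of its fitted log2 fold change was -1.61 to 2.9 for KD-Nap1l2 against NC. It was -1.85 to 1.84 for KD-Nap1l2-7d against NC-7d. The paper reports a knockdown in this cell line by western blot and qPCR. The groups are named by their labels. The mesenchymal markers summed to between 11042 and 23970 CPM (counts scaled to library size), and all 10 of them were above 1 CPM in at least 1 library. Of 10 adipocyte markers, 7 stayed under 1 CPM in every library, *Ucp1*, *Cidea* and *Plin1* among them. The 10 osteoblast markers summed to between 5143 and 8178 CPM, most of it *Spp1* (27598 to 90638 counts) and *Col1a1* (35783 to 114029). *Runx2* had 974 to 1604 counts, whereas *Sp7*, *Alpl* and *Ibsp* were the 3 under 1 CPM in every library, with no more than 5, 10 and 2 counts also after 7 days of induction. Of 10 skeletal muscle markers, 5 stayed under 1 CPM, and their sum lay between 2.17 and 9.15 CPM.

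The set was chosen by the measured counts of *Ppargc1a* and *Prkaa2*, which were known to be low in KD-Nap1l2 before induction. The difference between KD-Nap1l2 and NC before induction is therefore given as a description, without a test. The comparisons of 7 days with the uninduced cells use the same uninduced libraries, whereas KD-Nap1l2-7d against NC-7d uses libraries that had no part in the choice. In bulk RNA, fewer cells that express a gene and less RNA per cell cannot be told apart. No library came from cells kept for 7 days without induction. The osteogenic medium and the time in culture therefore cannot be told apart, and a change with induction below means the difference between these 2 states.

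Per gene length, the 9 genes covered a wide range. FPKM (fragments scaled to transcript length and library size) were highest for *Prkag1*, with 44.5 to 59.1 over the 8 libraries, followed by *Prkaa1* with 27.3 to 36.2 and *Prkab1* with 15.9 to 23.4. These ranges did not overlap, so that the order *Prkag1*, *Prkaa1*, *Prkab1* held in every library. *Pprc1* (5.70 to 14.0 FPKM), *Prkab2* (4.64 to 17.2 FPKM) and *Prkag2* (2.92 to 6.68 FPKM) followed with overlapping ranges, and so did *Prkaa2* (0.96 to 2.34 FPKM), *Ppargc1a* (0.31 to 2.81 FPKM) and *Ppargc1b* (0.29 to 0.72 FPKM). In the mean over all libraries, *Prkag1* stood above 88.0% of the genes tested and *Ppargc1b* above 9.9%. The third gamma subunit gene, *Prkag3*, which is known from skeletal muscle, had a normalized count between 0 and 14.7 and too few counts to be tested.

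**Figure D1:**
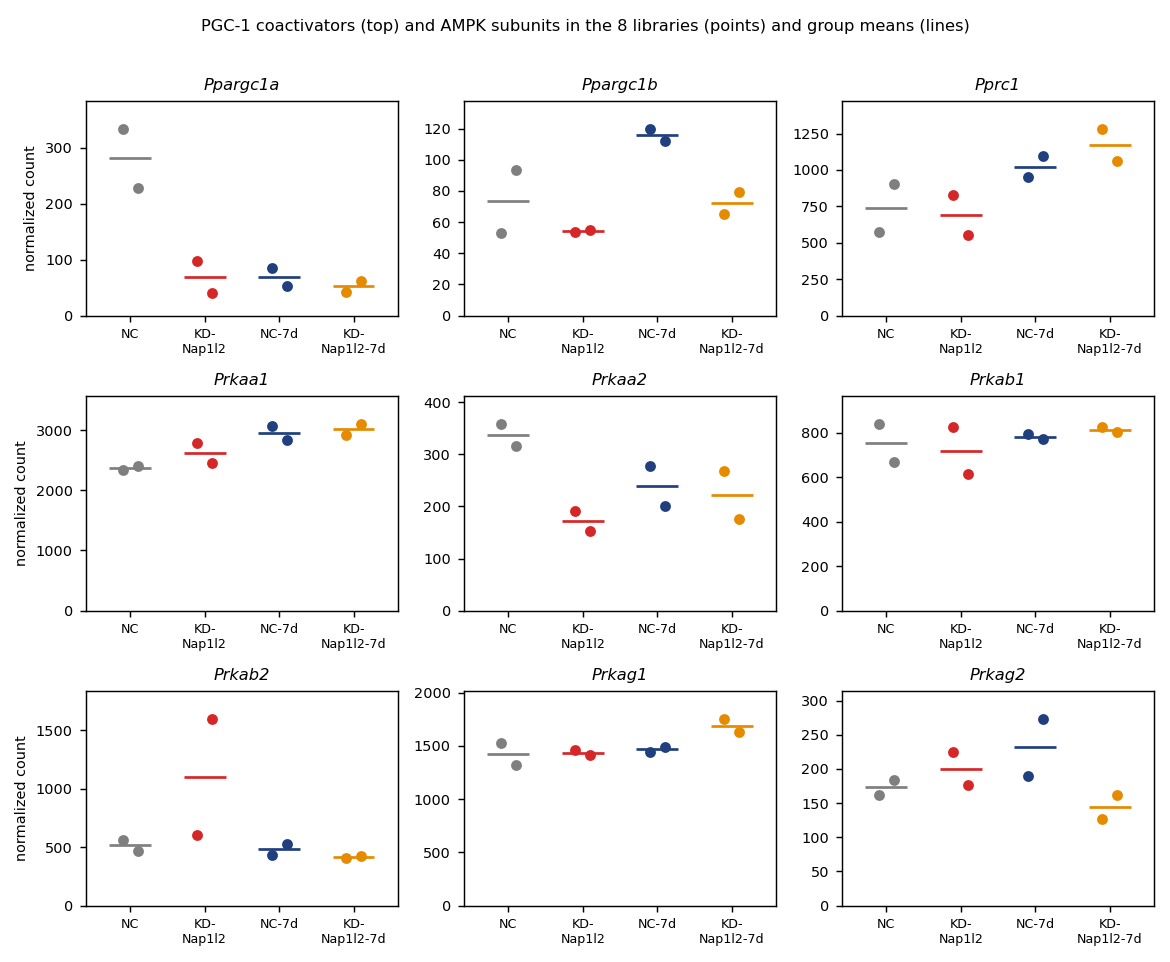
Normalized counts (y axis, from 0) of the 9 genes in the 4 groups (x axis). Each point is 1 library and each line the mean of the 2 libraries of a group. *Ppargc1a* was highest in both NC libraries, and *Prkab2* stood out in 1 KD-Nap1l2 library.

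*Ppargc1a* encodes PGC-1α, the founding member of the coactivator family. The gene spans chromosome 5 from 51454249 to 52115853 (GRCm38.p6). Its normalized counts were 333.9 and 228.1 in NC, 97.9 and 40.6 in KD-Nap1l2, 85.6 and 53.7 in NC-7d, and 42.1 and 62.7 in KD-Nap1l2-7d. Both NC libraries thus lay above the other 6, which overlapped one another between 40.6 and 97.9. *Ppargc1a* had the widest range of the 9 genes, with an 8.23-fold step from its lowest to its highest library, where *Prkaa1*, *Prkag1* and *Prkab1* ranged over no more than 1.37-fold. *Prkaa2*, on chromosome 4 from 105029649 to 105109898, encodes the α2 catalytic subunit. It had 358.5 and 316.9 normalized counts in NC, 190.8 and 151.9 in KD-Nap1l2, 277.2 and 201.3 in NC-7d, and 268.7 and 176.5 in KD-Nap1l2-7d. It was also highest in both NC libraries. Both KD-Nap1l2 libraries lay below both NC-7d libraries, and KD-Nap1l2-7d overlapped each of these groups.

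*Prkab2*, on chromosome 3 from 97658211 to 97673812, encodes the β2 scaffold subunit. Its normalized counts were 563.4 and 471.1 in NC, 602.9 and 1595.4 in KD-Nap1l2, 436.7 and 525.4 in NC-7d, and 408.0 and 422.9 in KD-Nap1l2-7d. A single library, KD-Nap1l2 replicate 2, stood 2.65-fold above the next highest, and the other 7 lay between 408.0 and 602.9.

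The 250 bases before the RefSeq starts of these 3 genes (GRCm38.p6, 5′ to 3′ on the strand of the gene) are shown because they are the members whose levels moved most between libraries. Capitals mark CG dinucleotides. The stretches are chr5:51567726-51567975 (minus strand) for *Ppargc1a*, chr4:105109899-105110148 (minus strand) for *Prkaa2* and chr3:97657962-97658211 (plus strand) for *Prkab2*. That of *Ppargc1a* lies inside the span of the gene given above, so it precedes an internal start. Which start of *Ppargc1a* these cells used was not tested.
Ppargc1a: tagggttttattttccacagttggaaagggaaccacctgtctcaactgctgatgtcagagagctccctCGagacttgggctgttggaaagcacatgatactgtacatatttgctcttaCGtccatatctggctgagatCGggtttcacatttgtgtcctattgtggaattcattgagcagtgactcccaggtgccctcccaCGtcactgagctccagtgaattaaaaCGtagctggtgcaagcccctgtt
Prkaa2: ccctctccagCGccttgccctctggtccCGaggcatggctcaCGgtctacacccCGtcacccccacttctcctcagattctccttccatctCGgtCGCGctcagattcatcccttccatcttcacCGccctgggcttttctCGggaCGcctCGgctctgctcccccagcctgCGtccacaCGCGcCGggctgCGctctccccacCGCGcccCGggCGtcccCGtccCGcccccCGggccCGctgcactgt
Prkab2: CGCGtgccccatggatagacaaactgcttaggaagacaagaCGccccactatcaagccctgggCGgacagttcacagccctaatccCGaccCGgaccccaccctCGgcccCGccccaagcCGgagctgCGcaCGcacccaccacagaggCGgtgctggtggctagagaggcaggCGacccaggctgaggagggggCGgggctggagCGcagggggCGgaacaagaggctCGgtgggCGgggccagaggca

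These promoters differed in base composition. That of the internal *Ppargc1a* start held 5 CG dinucleotides, and 44.4% of 32851 mouse promoters of this length held fewer. Those of *Prkaa2* and *Prkab2* held 24 and 18, more than 88.0% and 78.3% of all promoters, and that of *Prkaa1* held 45, more than 99.6%. The letters TGACG, the core of the cAMP response element through which CREB acts, were searched on both strands and stood in 17.8% of all promoters. Among the members they were found in *Ppargc1a*, 49 to 45 bases before the internal start. They also stood in *Prkaa2*, 196 to 192 bases before its start, and in *Prkag1*, 22 to 18 bases before its start. The full element TGACGTCA, which contains these letters, stood in 1.55% of promoters and in 0 of the 10 promoters listed for 8 of the members, and the TATA box (TATAAA), found in 12.4%, was likewise in 0 of them. The binding letters of the nuclear receptor ERRα (TNAAGGTCA, 1.14% of promoters) occurred in 1 of the promoters of *Prkag2*, and those of GABP (CCGGAAG, 6.91%) in *Prkab1* and *Prkag1*. These are matches of letters in a window, and no binding was measured here.

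Before induction, *Ppargc1a* had 281.0 ± 74.8 normalized counts (SD, n = 2) in NC and 69.2 ± 40.5 in KD-Nap1l2, or -2.01 ± 0.44 on the log2 scale (estimate ± standard error), with -2.79 to -1.52 when 1 library was left out. *Prkaa2* had 337.7 ± 29.4 and 171.4 ± 27.5, -0.98 ± 0.26 on the log2 scale (estimate ± standard error) and -1.15 to -0.82 without 1 library. Both genes were lower in both KD-Nap1l2 libraries than in either NC library. For *Prkab2* the log2 fold change was 1.09 (standard error 0.38), and it was 0.22 without KD-Nap1l2 replicate 2. The other 6 members lay between -0.43 (*Ppargc1b*) and 0.21 (*Prkag2*). In all, 4 were higher and 5 lower, with a median of -0.07 beside 0.01 over all genes tested, and the groups of libraries did not overlap for 4 of the 9 beside 43.2% of all genes. By edgeR's quasi-likelihood test, 0 of the 9 and 0.0817% of all genes passed an adjusted p of 0.05, counts that are printed only for reference since this contrast chose the set.

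The interferon-stimulated genes, which differ between the libraries, moved with *Ppargc1a* in part. The 9 measured genes of that list summed to 4444 and 6236 CPM in NC, 1870 and 754 in KD-Nap1l2, 5442 and 1109 in NC-7d, and 2858 and 4020 in KD-Nap1l2-7d. NC-7d replicate 1 had an interferon sum between those of the NC libraries and a *Ppargc1a* count of 85.6, under both of them. The part of this state in the level of *Ppargc1a* was not tested.

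The comparison of KD-Nap1l2-7d with NC-7d asked whether the shRNA group still differed in these genes after osteogenic induction. *Ppargc1a* averaged 69.7 ± 22.6 normalized counts (SD, n = 2) for NC-7d against 52.4 ± 14.5 for KD-Nap1l2-7d, and the libraries overlapped. Its log2 fold change was -0.41 (95% interval -1.47 to 0.66, adjusted p = 0.897 by edgeR's quasi-likelihood test). *Prkaa2* averaged 239.3 ± 53.7 and 222.6 ± 65.2 normalized counts, again with overlap, and a log2 fold change of -0.10 (95% interval -0.69 to 0.49, adjusted p = 0.964 by the same test). The largest differences were those of *Prkag2*, the γ2 subunit gene, and *Ppargc1b*, which encodes PGC-1β. *Prkag2* had 127.3 and 161.9 normalized counts in KD-Nap1l2-7d and 189.5 and 273.3 in NC-7d, without overlap (log2 fold change -0.68, standard error 0.25, adjusted p = 0.557 by edgeR's test). *Ppargc1b* had 65.2 and 79.4 in KD-Nap1l2-7d and 119.9 and 112.2 in NC-7d, also without overlap (log2 fold change -0.68, standard error 0.30, adjusted p = 0.642). By edgeR's test 0 of the 9 members passed the adjusted threshold, beside 0.0% of all genes, and 1 passed unadjusted, beside 7.85%. DESeq2 and limma also called 0 of the 9, and DESeq2 called 0.623% of all genes. Without overlap were 5 of the 9 members and 42.1% of all genes.

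Osteogenic induction was compared with the uninduced state in each kind of cell and over both. In control cells, *Ppargc1a* went from 281.0 ± 74.8 to 69.7 ± 22.6 normalized counts (SD, n = 2), which is -2.01 ± 0.44 on the log2 scale (estimate ± standard error) and -2.38 to -1.71 when 1 of the 4 libraries was left out. Both NC-7d libraries lay below both NC libraries. The NC libraries are those whose high level entered the choice of this gene, so its change is given without a test. It was the 1 of 9 members past the adjusted threshold of edgeR's quasi-likelihood test in control cells, beside 8.21% of all genes, and nothing is read from that count. Unadjusted, *Prkaa1*, the gene of the α1 catalytic subunit, passed (24.5% of all genes did), with 2345 and 2409 normalized counts in NC and 3062 and 2832 in NC-7d (log2 fold change 0.31, adjusted p = 0.169 by the same test). The groups did not overlap for 6 of the 9 members and 57.8% of all genes.

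In KD-Nap1l2 cells, *Ppargc1a* had 69.2 ± 40.5 normalized counts (SD, n = 2) before and 52.4 ± 14.5 after 7 days, and the libraries overlapped (log2 fold change -0.41, 95% interval -1.47 to 0.66, without a test for the same reason). Without KD-Nap1l2 replicate 1 this log2 fold change turned to 0.36. *Prkab2* was the only member called, 1 of 9 beside 14.2% of all genes, at -1.40 ± 0.39 on the log2 scale (estimate ± standard error, adjusted p = 0.0482 by edgeR's test). This call rested on KD-Nap1l2 replicate 2, without which the log2 fold change was -0.54 and the adjusted p 0.110. Leaving out KD-Nap1l2-7d replicate 1 or 2 left the log2 fold change at -1.38 and -1.44, with adjusted p-values of 0.227 and 0.200. *Prkab2* was also no longer called with only the 4 libraries compared (adjusted p = 0.0858), with the replicate number as a block (0.0603) or by limma on log2(FPKM + 1) (0.0704). *Pprc1*, which encodes the PGC-1-related coactivator PRC, had 826.0 and 553.7 normalized counts before and 1282.2 and 1058.9 after induction (log2 fold change 0.76, adjusted p = 0.0854 by edgeR's test and 0.0324 by DESeq2, which called 2 of 9 beside 18.1% of all genes). Without KD-Nap1l2 replicate 1 it was called by edgeR as well (1.08, adjusted p = 0.0453). The groups did not overlap for 6 of the 9 members and 61.4% of all genes.

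**Figure D2:**
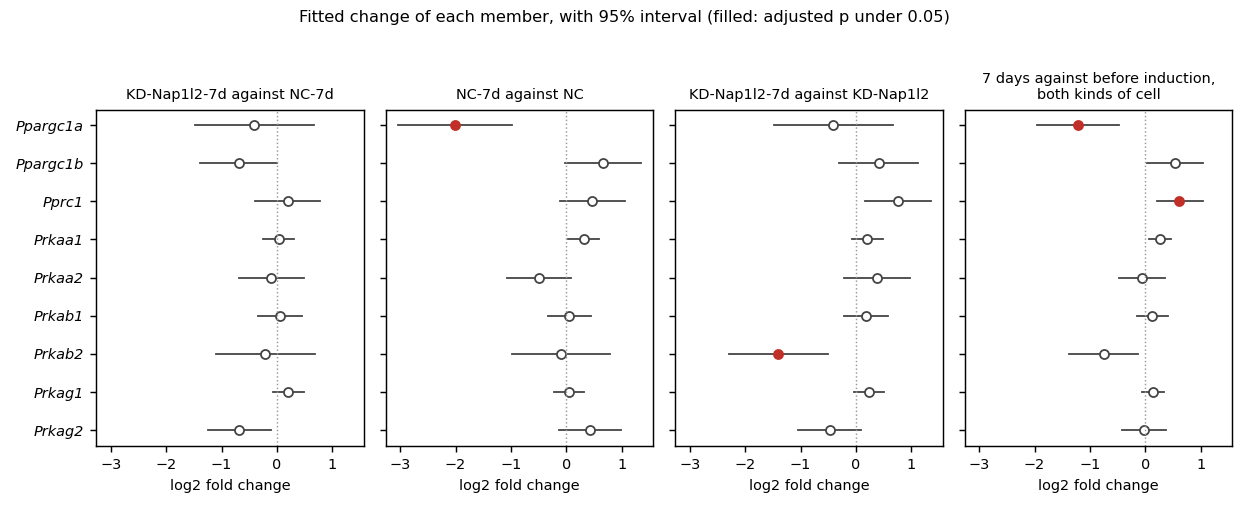
Fitted log2 fold change (x axis) of the 9 genes (y axis) in 4 comparisons. Circles are estimates from the fit over all 8 libraries, lines are 95% intervals, and filled circles mark an adjusted p under 0.05. Filled are *Ppargc1a* in control cells and over both kinds of cell, *Prkab2* in KD-Nap1l2 cells and *Pprc1* over both. The uninduced values of *Ppargc1a* chose the set, so its filled circles are a description.

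Over both kinds of cell, with 4 induced against 4 uninduced libraries, 2 of the 9 members passed the adjusted threshold of edgeR's test, beside 25.5% of all genes. One of them was *Ppargc1a*, at -1.21 on the log2 scale (standard error 0.32), and its call is not read, since it uses the uninduced libraries that chose it. *Pprc1* rose from 576.2, 902.1, 826.0 and 553.7 normalized counts in the uninduced libraries to 948.4, 1094.9, 1282.2 and 1058.9 after 7 days (log2 fold change 0.61, standard error 0.18, adjusted p = 0.0410). Every induced library was above every uninduced one for *Pprc1*. The share of all genes that separate in this way was not counted, so nothing is read from it. The induced libraries of *Ppargc1a* overlapped those of KD-Nap1l2. The estimate of *Ppargc1a* was -1.46 to -0.82 when 1 library was left out. The call of *Pprc1* was lost with the replicate number as a block (adjusted p = 0.0603), by limma (0.0592 to 0.109) and without any 1 library other than NC replicate 2 or KD-Nap1l2 replicate 1 (0.0596 to 0.137).

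Of the remaining members none was called by edgeR over both kinds of cell. *Prkaa1* stood at 0.26 ± 0.09 on the log2 scale (estimate ± standard error, adjusted p = 0.0645) and *Ppargc1b* at 0.53 ± 0.22 (adjusted p = 0.107), both by edgeR's test over both kinds of cell. *Prkab2* had -0.75 (adjusted p = 0.0772 by edgeR's test and 0.0151 by DESeq2), and this was -0.32 without KD-Nap1l2 replicate 2 and -1.02, a called value (adjusted p = 0.00167), without KD-Nap1l2 replicate 1. The intervals of the other 4 were -0.48 to 0.36 for *Prkaa2*, -0.16 to 0.40 for *Prkab1* (β1), -0.06 to 0.34 for *Prkag1* (γ1) and -0.43 to 0.37 for *Prkag2*. The averages of *Prkaa2* and *Prkag2* join opposite signs. *Prkaa2* stood at -0.50 (standard error 0.25) in control and 0.38 (0.26) in KD-Nap1l2 cells, *Prkag2* at 0.42 (0.24) and -0.47 (0.25). The uninduced counts of *Prkaa2* chose the set, so its values are a description. For *Prkab1* and *Prkag1* a change larger than 0.40 on the log2 scale thus lay outside the interval. The median over the 9 members was 0.12, beside -0.01 over all genes.

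The difference between the induction responses of KD-Nap1l2 and control cells contains the contrast that chose the set, so it is given with its error only. It was 1.61 on the log2 scale for *Ppargc1a* (standard error 0.64), 0.87 for *Prkaa2* (0.36), -0.89 for *Prkag2* (0.35) and -1.30 for *Prkab2* (0.54). No test of it is given for the members.

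Set against one another within a class of subunit, FPKM gave the share of each form in every library. *Prkaa2* made up 7.91 and 6.97% of the alpha FPKM in NC, 3.74 and 3.38% in KD-Nap1l2, 4.81 and 3.86% in NC-7d, and 4.88 and 3.08% in KD-Nap1l2-7d. The catalytic transcripts were therefore almost entirely *Prkaa1*, and the share of *Prkaa2* was above 5% in NC only. *Prkab2* made up 21.9 and 22.8% of the beta FPKM in NC, 23.6 and 52.1% in KD-Nap1l2, 18.7 and 22.2% in NC-7d, and 17.2 and 18.1% in KD-Nap1l2-7d. *Prkab1* was the larger form in 7 of the 8 libraries. *Prkag2* made up 7.07 and 8.60% of the gamma FPKM in NC, 9.95 and 8.08% in KD-Nap1l2, 8.12 and 11.5% in NC-7d, and 4.71 and 6.19% in KD-Nap1l2-7d, the lowest of the 4 groups. Between 4 induced and 4 uninduced libraries, exact two-sided permutation tests gave p = 0.0571 for *Prkab2* and 0.657 for *Prkag2* (0.171 and 0.657 after Benjamini-Hochberg adjustment over the 3 shares, with 0.0286 as the smallest p these 70 arrangements allow). With 2 libraries against 2, no exact p can go below 0.333. The share of *Prkaa2* is given without a test, since its uninduced counts chose the set.

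**Figure D3:**
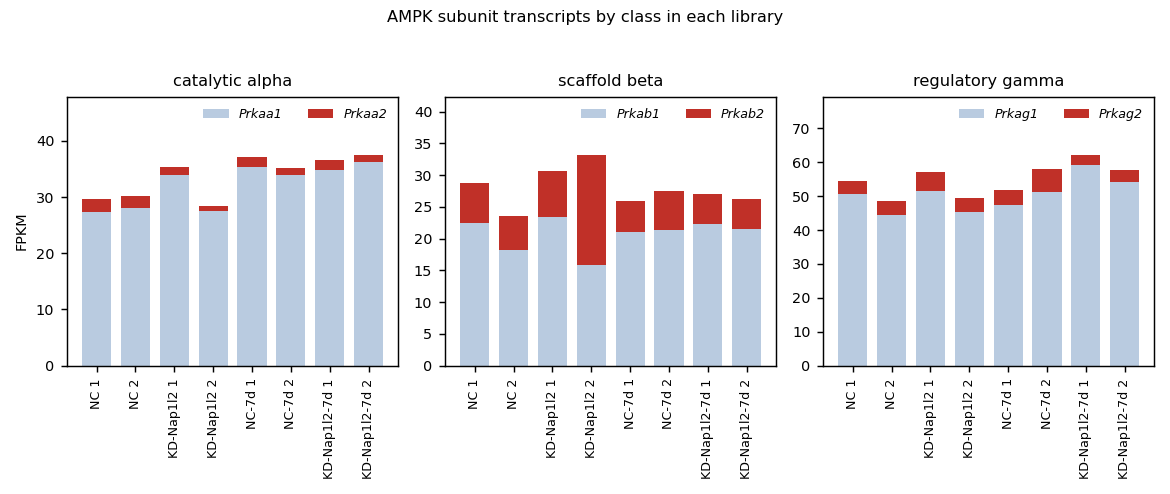
FPKM (y axis, from 0) of the alpha, beta and gamma subunit genes, stacked by class in each of the 8 libraries (x axis). The pale form leads in every bar except the beta bar of KD-Nap1l2 replicate 2, where *Prkab2* reached 52.1%.

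The high *Prkab2* library was looked at more closely after its values were seen. The gap of KD-Nap1l2 replicate 2 to the next library was 1.40 on the log2 scale of CPM, and 47 of the genes tested (0.349%) had a gap as large or larger in that library, which was the highest of the 8 for 2700 of the genes. The tested neighbours on chromosome 3 did not share the gap. *Chd1l* and *Fmo5*, upstream, had 71.8 and 28.1 normalized counts in this library, below the other 7 (93.0 to 154.2 and 31.8 to 64.2). *Pde4dip*, downstream, had 1483.0, within the 684.6 to 1497.7 of the other libraries but above the other uninduced ones (684.6 to 874.9). *Sec22b* had 1106.3, within the 848.5 to 1464.7 of the other libraries. The extra reads were assigned mostly to 1 of 4 transcript models of *Prkab2*, with 1092.3 estimated counts in this library and 274.6 to 511.3 in the others, and a second model had 416.8, where 6 of the other 7 libraries had 0.

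**Figure D4:**
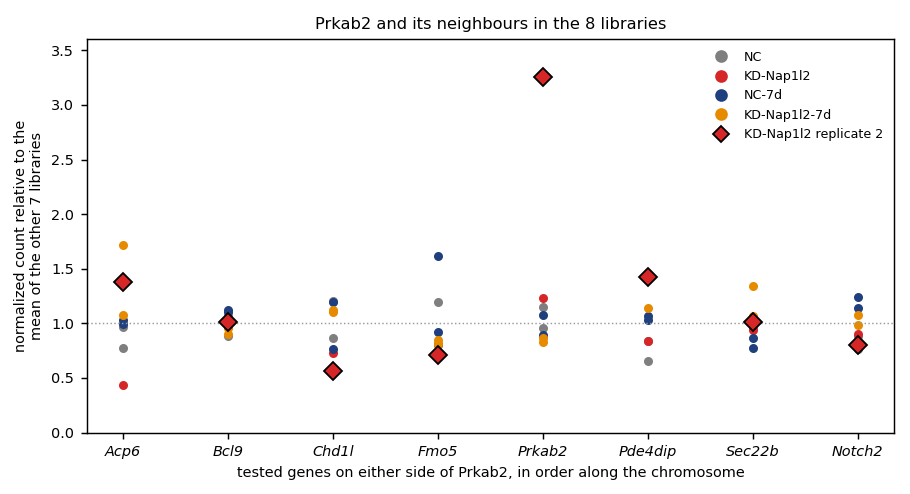
Normalized count of *Prkab2* and the tested genes beside it (x axis, in order along the chromosome), relative to the mean of the 7 libraries other than KD-Nap1l2 replicate 2 (y axis). Points are libraries and diamonds KD-Nap1l2 replicate 2, which stood at 3.26 for *Prkab2* and between 0.561 and 1.42 for its neighbours.

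For *Ppargc1a*, the split of counts between transcripts was not stable. None of its 10 transcript models had counts in every library, and 5 different models led in the 8 libraries. The model that led in both NC libraries had 256.4 and 98.9 estimated counts there, 89.4 in KD-Nap1l2 replicate 1 and 0 in the other 5. *Prkaa1*, *Prkaa2*, *Prkab2*, *Prkag1* and *Ppargc1b* each had the same leading model in all 8 libraries. No member overlapped another gene of the count table, but *Prkag2* shares its span with 6 genes annotated outside it, the antisense *Prkag2os1* among them, and whether the counting used strand is not given in the sources used here.

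In the median, the members varied between replicates as much as, or more than, all genes tested, which were not matched to them for expression level. The median difference between the 2 libraries of a group, over the 9 members and on the log2 scale, was 0.26 in NC (0.18 over all genes tested), 0.35 in KD-Nap1l2 (0.26), 0.21 in NC-7d (0.21) and 0.28 in KD-Nap1l2-7d (0.15). *Ppargc1a* differed by 0.55 to 1.23 between replicates and *Prkaa1* by 0.04 to 0.17, which was below the median of all genes in each group. The genes whose log2 CPM followed *Ppargc1a* most closely over the 8 libraries, among 11278 that averaged 50 or more normalized counts, were *Ptgr2* (Pearson r = 0.982), *Rbm43* (0.975) and *Nol7* (0.973). *Prkaa2* was followed most closely by *Nudt19* (0.962), *Cgrrf1* (0.938) and *Zfp110* (0.932), and its own r with *Ppargc1a* was 0.747, at rank 557 of the genes set against *Ppargc1a*. The libraries fall into 4 groups, so these values describe a shared pattern over groups as well as over libraries. They also use the uninduced counts of *Ppargc1a* and *Prkaa2* that chose the set, so no link between genes is read from them.

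Around these 9 genes, 109 genes of 5 lists of AMPK and PGC-1 biology were tested. Over both kinds of cell, 31 of them were called between induced and uninduced libraries, 25 higher and 6 lower. This is 28.4% beside 25.5% of all genes, and the median was 0.16 on the log2 scale beside -0.01. Adjusted p-values here are from edgeR's quasi-likelihood test. Among AMPK kinases and regulators 5 of 18 were called (27.8%, beside the 25.5% of all genes). *Fnip2* (log2 fold change 1.24, adjusted p = 0.000665) and *Flcn* (0.47, 0.0404), which form the folliculin complex, the sestrin *Sesn1* (0.92, 0.000649) and the upstream kinase *Camkk2* (0.48, 0.0144) rose, and *Sesn3* fell (-0.80, 0.000795). Of the AMPK-related kinases 6 of 12 were called, with *Mark1* from 182 to 311 normalized counts before and from 1124 to 1311 after induction (log2 fold change 2.40, adjusted p = 0.00021). *Sik3*, *Nuak1*, *Nuak2* and *Snrk* rose by 0.30 to 0.55 on the log2 scale, and *Melk* fell (-0.70).

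Of the AMPK substrates 4 of 19 were called (21.1%), below the 25.5% of all genes. The hormone-sensitive lipase gene *Lipe* (log2 fold change 0.85), *Foxo3* (0.56) and *Rptor* (0.33) were among them, and all 3 rose. Among the partner factors and regulators of PGC-1 5 of 27 were called (18.5%), also below the 25.5% of all genes. *Mef2c*, a muscle and bone transcription factor, fell (-2.18, adjusted p = 0.000786), the corepressor gene *Nrip1* (0.86), *Pparg* (1.0) and *Rxra* (0.51) rose, and *Prmt1* fell (-0.29). Among the adipocyte markers, *Fabp4* had 91 to 278 counts before and 1531 to 1948 after induction, *Lpl* had its highest counts in the uninduced KD-Nap1l2 libraries, *Cebpa* had 77 to 202 before and 24 to 69 after, and the other 7, *Adipoq* and *Plin1* included, stayed under 1 CPM. *Mef2c* had 1073 to 2080 normalized counts in the uninduced libraries, KD-Nap1l2 included, and 330 to 445 after 7 days.

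Of the mitochondrial and PGC-1 target genes 11 of 33 were called (33.3%, beside 25.5% of all genes), 10 higher and 1 lower. The pyruvate dehydrogenase kinase gene *Pdk4* had 422 to 732 normalized counts before and 3812 to 5536 after induction (log2 fold change 3.09, adjusted p = 8.49e-05), and *Cpt1a*, *Acadl* and *Angptl4* of lipid use and *Sod2* and *Cat* of oxidant defence rose by 0.40 to 1.02. In control cells 17 of the 109 were called (15 higher, 2 lower, 15.6% beside 8.21% of all genes) and in KD-Nap1l2 cells 16 (12 higher, 4 lower, 14.7% beside 14.2%). *Sik2* (log2 fold change 0.51), *Tbc1d4* (0.77) and *Ldhb* (0.71) were called in control cells and not over both kinds of cell. The log2 fold change was above 0 in both kinds of cell for 60 of the 109 and below 0 in both for 19. Without NC replicate 1, the 17 became 3, and the 16 became 5 without KD-Nap1l2-7d replicate 1 or replicate 2. For the shRNA group at 7 days against its control, and for the difference in response, 0 of the 109 passed the adjusted threshold by edgeR, DESeq2 or limma (for the difference in response 0.0% of all genes by edgeR and limma and 0.757% by DESeq2), and 10 and 9 passed edgeR's test unadjusted, beside 7.85% and 7.04% of all genes. The smallest p-values by edgeR were those of *Tbc1d4*, a substrate that controls glucose transporter traffic, and *Sesn1* after 7 days (-0.66 and -0.46 on the log2 scale, adjusted p = 0.495 and 0.504), and of *Ldhb* and *Acadm* for the difference in response (-0.97 and -0.74, adjusted p = 0.439 and 0.443).

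**Figure D5:**
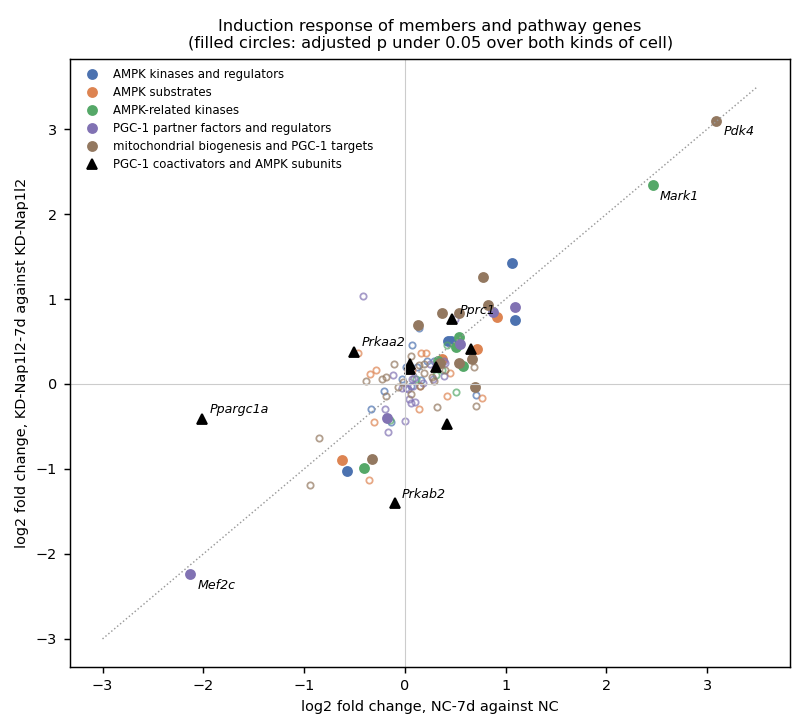
Log2 fold change after 7 days in control cells (x axis) and in KD-Nap1l2 cells (y axis) for the 109 pathway genes (circles, coloured by list, filled where the adjusted p over both kinds of cell is under 0.05) and the 9 members (triangles). The dotted line marks equal change. *Pdk4* and *Mark1* lie near 3.09 and 2.40 in both, whereas *Ppargc1a* and *Prkab2* lie off the line. So do *Prkaa2* (-0.50 and 0.38) and *Prkag2* (0.42 and -0.47). Distance from the line contains the contrast that chose the set by *Ppargc1a* and *Prkaa2*, so it is a description. For *Prkab2* the value in KD-Nap1l2 cells was -0.54 without KD-Nap1l2 replicate 2.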

How the data were processed

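RNA from 8 cell samples was sequenced. Libraries were made and sequenced by Beijing Genomics Institute, and the submitters' processing notes name BWA, Bowtie2, RSEM and GRCm38.p6 without roles or versions. For genes and transcripts the authors deposited estimated counts without normalization, of which 41.1% of genes have at least 1 not whole, beside deposited FPKM values scaled to length and library. Their own comparisons (log2 fold changes, p- and q-values from DESeq2 by the column names) were not used.

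Estimated counts were rounded, scaled by TMM and filtered with filterByExpr (13470 of 18605 genes), and all 8 libraries were fitted together with 1 coefficient per group in edgeR 4.0.16 (R 4.3.3). Each contrast had a quasi-likelihood F test, with Benjamini-Hochberg adjustment over all genes tested and a threshold of 0.05. A standard error is the log2 fold change over the square root of the F statistic, and 95% intervals use 7.9 degrees of freedom. Normalized counts are counts scaled by effective library size. With totals of 17420237 to 19427284, a count of 0 allows up to 3 counts, and such limits cover counting error only.

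The members and the pathway and marker lists were chosen with earlier results of these data known. Named are all 9 members and *Nap1l2*, of each pathway list the genes called in a comparison (at most the 6 with the smallest p), over all lists the 2 with the smallest p where none was called, and for *Ppargc1a* and *Prkaa2* the 3 genes of highest correlation. The neighbours of *Prkab2* and the single marker genes were named after their values were seen. Gene positions and promoters are from RefSeq tables of GRCm38.p6, and 8 of 9 members had a promoter. No protein sequence was used here. The values of 1 called pathway gene are not reported here.

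Alternatives were no filter, at least 10 counts in every library, RLE size factors, DESeq2 1.42.0, a block for the replicate number, a fit of only those libraries under comparison, limma 3.58.1 on log2(FPKM + 1) with and without a filter and on log2(FPKM + 0.1), counts summed from transcripts, and leaving out each library, where the lone library left is assumed to vary like the other groups. For the subunit shares, estimated counts in place of FPKM were tried. The fits were tested on simulated data. Figures were drawn with matplotlib 3.10.9.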

Additional observations from a re-analysis of the deposited data

How the results depend on the processing

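With 2 libraries per group, each fit has few degrees of freedom, and 1 library can decide a call. Genes as low as *Ppargc1a* and *Ppargc1b* carry more counting error than *Prkaa1* or *Prkag1*.

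Before induction, 5 of the 9 members were lower in KD-Nap1l2, and 3 to 6 were when 1 library was left out. In control cells the 1 called member became 0 in each fit without 1 library, and the 17 called pathway genes became 10 with only the libraries compared, 11 with the replicate block, 11 by limma on log2(FPKM + 1), 8 by limma without a filter, and 3 to 12 without 1 library. In KD-Nap1l2 cells the 1 called member became 2 by DESeq2, 0 with only the libraries compared, with the replicate block and in each of the 3 limma fits, and 0 to 2 without 1 library, and the 16 pathway genes became 5 to 26. Over both kinds of cell the 2 called members became 1 with the replicate block and in the 3 limma fits and 0 to 3 without 1 library, and the 31 pathway genes became 17 to 37. These counts include *Ppargc1a*, whose uninduced values chose the set. The causes were not tested, except that leaving out a library reduces the samples.

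Small log2 fold changes turned sign when 1 library was left out. Before induction the ranges were -0.78 to 0.035 for *Ppargc1b*, -0.42 to 0.26 for *Pprc1*, -0.30 to 0.13 for *Prkab1* and -0.085 to 0.12 for *Prkag1*, and that of *Ppargc1a*, which kept its sign, was -2.79 to -1.52. The other ranges were -0.023 to 0.089 for *Prkaa1* and -0.44 to 0.16 for *Prkaa2* between KD-Nap1l2-7d and NC-7d. In control cells they were -0.10 to 0.23 for *Prkab1*, -0.24 to 0.03 for *Prkab2* and -0.052 to 0.15 for *Prkag1*, and in KD-Nap1l2 cells -0.90 to 0.36 for *Ppargc1a* and -0.016 to 0.41 for *Prkab1*. Over both they were -0.23 to 0.072 for *Prkaa2* and -0.17 to 0.10 for *Prkag2*, and for the difference in response -0.72 to 0.10 for *Ppargc1b*, -0.064 to 0.61 for *Pprc1* and -0.071 to 0.35 for *Prkab1*.

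With estimated counts in place of FPKM, which leaves transcript length in the values, the mean share of *Prkaa2* became 12.4% in NC, 6.12% in KD-Nap1l2, 7.47% in NC-7d and 6.90% in KD-Nap1l2-7d. That of *Prkab2* became 40.7, 57.2, 38.0 and 33.8% in NC, KD-Nap1l2, NC-7d and KD-Nap1l2-7d, where 57.2% stands against 37.9% from FPKM and makes it the larger beta form in the KD-Nap1l2 mean, and that of *Prkag2* 10.9, 12.1, 13.5 and 7.90% in NC, KD-Nap1l2, NC-7d and KD-Nap1l2-7d.

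Replicate numbers are shared between groups, but the deviations of same-numbered libraries from their group means correlated at only -0.061 to 0.104 over the 6 pairs of groups and 13470 genes, so the samples share a number and no known pairing.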
